A study of Drosophila melanogaster with 6 samples.

Results

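The Greek-letter trypsin genes are 10 genes of Drosophila melanogaster, alphaTry, betaTry, gammaTry, deltaTry, epsilonTry, zetaTry, etaTry, thetaTry, iotaTry and kappaTry, out of 17116 genes in the count tables. They were chosen by name. RNA was sequenced from the midgut, the main digestive part of the fly intestine, of mated and virgin females of the w1118 strain, a white-eyed stock used as wild type. All flies were 8 days old, and mated females were dissected 3 days after mating. Each library came from a pool of 30 guts, with 3 mated and 3 virgin libraries. The question was which midgut transcripts change in females once they have mated. A pool of whole midguts mixes cell types, so more cells of a type and more RNA per cell cannot be told apart here.

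Trypsins are serine proteases that cut proteins after lysine or arginine. In the fly midgut, enterocytes, the absorptive cells, make them as inactive precursors and secrete them into the lumen, where they break food protein into peptides. The Greek-letter genes are the classical trypsin gene cluster of this species.

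Levels are counts per 1000000 gene counts (CPM) on library sizes scaled by TMM, a method that balances libraries over most genes. Fold changes and adjusted p-values come from edgeR's quasi-likelihood test over all 8607 genes tested, with Benjamini-Hochberg adjustment and a threshold of 0.05. Of the 10 genes, 9 had enough counts to be tested, and gammaTry had none. In mated midguts 3 of the 9 rose, namely deltaTry by 8.39-fold, epsilonTry by 1.71-fold and thetaTry by 1.51-fold. This stands beside 2.47% of all tested genes called higher. None of the 9 fell in edgeR, where 1.63% of all tested genes were called lower. At an unadjusted p below 0.05, 0 members were lower, and DESeq2 and limma-voom also called 0 lower. The same 3 genes were the only ones of the 9 whose mated libraries all lay above the virgin libraries, which held for 11.6% of all tested genes, and 0 had all mated libraries below, which held for 12.3%. The median log2 fold change was 0.23 over the 9 tested genes and -0.045 over all genes tested.

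Total gene counts ranged from 16293718 to 25464204 in mated and from 15902696 to 29021297 in virgin libraries. Within each group, no pair of libraries agreed within sampling noise (the chi-square divided by its degrees of freedom was 23.3 or more). The enterocyte marker list summed to 4810 to 5235 CPM in mated and 4288 to 5062 CPM in virgin libraries, with 0 of its 6 genes called in edgeR, DESeq2 or limma-voom and 0 at an unadjusted p below 0.05. The lists for progenitor, enteroendocrine and copper cells also had overlapping ranges and 0 calls by any of the 3 tools, with 2 enteroendocrine genes higher at an unadjusted p below 0.05 and 0 genes of the other 2 lists. All 5 visceral muscle markers rose, beside 2.47% of all tested genes called higher. Their summed level was 2087 to 3132 CPM in mated and 1176 to 1468 CPM in virgin libraries. The part of this shift in the trypsin values was not tested. With 1 library left out, Act57B and Mlp60A passed each time, while Mhc was lost in 3 of 6 fits, Mlc2 in 2 and up in 5 (adjusted p up to 0.0974), and up was also lost with library size alone. The ovary list summed to 96.9 to 243 CPM in mated and 70.4 to 298 CPM in virgin libraries with 0 of 3 tested genes called. Most of it came from the yolk protein genes Yp1, Yp2 and Yp3, which had counts in every library, while Cp36 was at 0 throughout and osk reached 22.7 CPM in virgin 2 against at most 0.127 CPM elsewhere. The fat body list summed to 6.54 to 15.2 CPM in mated and 9.98 to 22.5 CPM in virgin libraries, with 0 of 2 tested genes called. Of this list, apolpp had 5.01 to 12.02 CPM in mated and 9.53 to 22.5 CPM in virgin libraries (log2 fold change -1.04, adjusted p = 0.204, edgeR; 1 gene lower at an unadjusted p below 0.05), and Fbp1 was at 0 in every library. The part of these transcripts in the trypsin values was not tested.

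**Figure D1:**
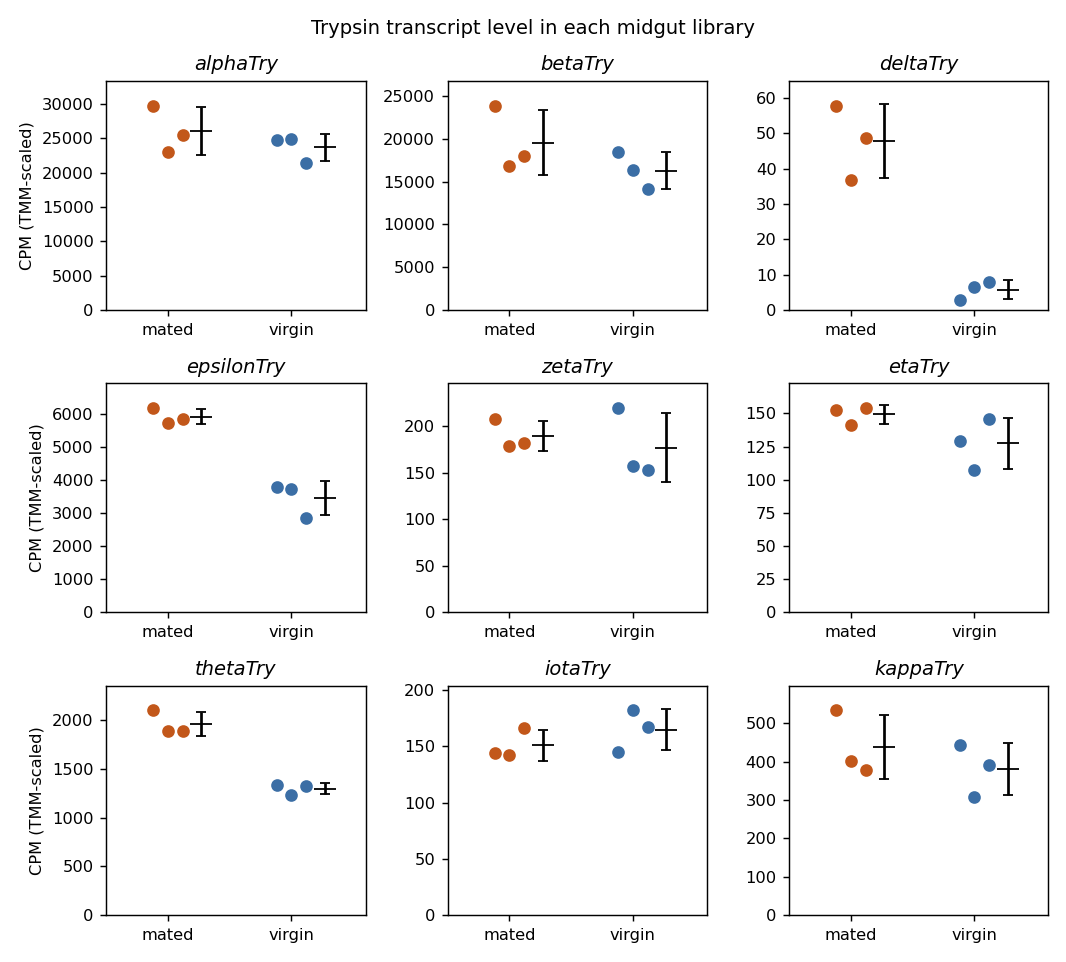
Transcript level (CPM on TMM-scaled library sizes, vertical axes from 0, each with its own scale) of the 9 counted trypsin genes in the 3 mated (left, orange) and 3 virgin (right, blue) libraries; points are libraries, and the black bars are the group mean and SD. The mated points lie above the virgin points for deltaTry, epsilonTry and thetaTry and overlap them for the other 6.

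The cluster is compact. In the Ensembl annotation of the fly assembly in dm6 coordinates, the 10 genes lie on chromosome arm 2R between 11337797 and 11357537, a stretch of 19741 bases, with 3 genes on the plus strand and 7 on the minus strand. Every one is protein coding, and each annotated transcript is a single exon, so none has an intron. Their exonic lengths run from 810 bases in gammaTry and deltaTry to 1071 bases in betaTry. Further trypsin genes adjoin or interrupt the cluster. lambdaTry (11336840 to 11337791) ends just before kappaTry (11337797 to 11338733), while CG30031 (11350811 to 11351621) and CG30025 (11353564 to 11354373) lie between gammaTry (11349061 to 11349870) and deltaTry (11355319 to 11356128). The coding lengths of betaTry, gammaTry, deltaTry, CG30025 and CG30031 are all 759 bases.

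**Figure D2:**
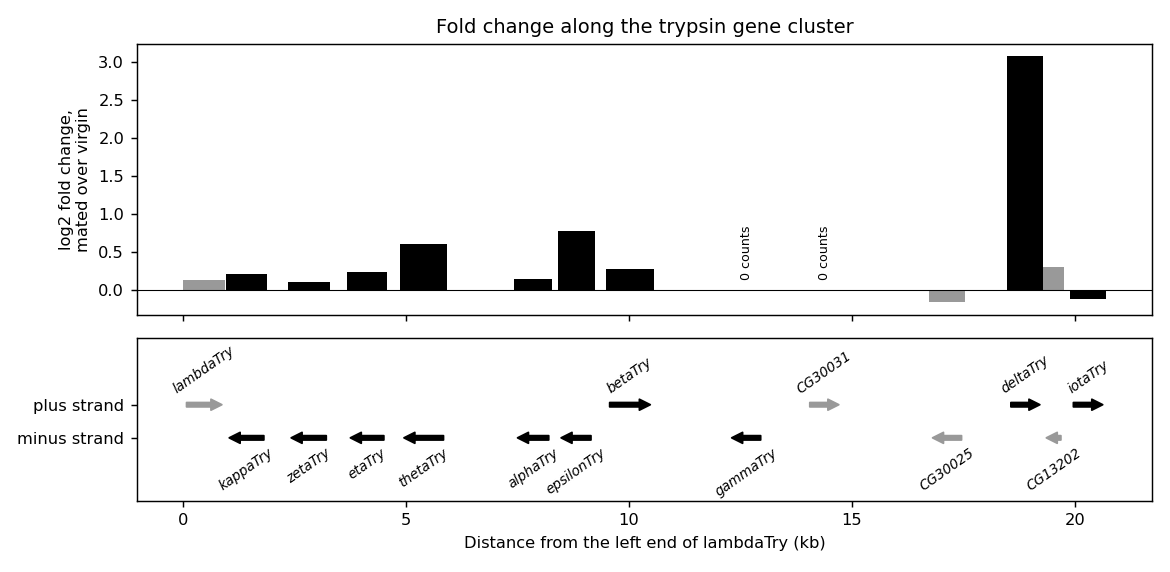
Log2 fold change (mated over virgin, bars) and strand (arrows) of the genes along the cluster; the horizontal axis is the distance in kb from the left end of lambdaTry, black marks the 10 Greek-letter genes and grey their neighbours. The value of deltaTry is 3.07 and that of its neighbour iotaTry -0.13, and gammaTry and CG30031 had 0 counts.

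The 3 genes that rose are not adjacent: alphaTry lies between thetaTry (11341714 to 11342760) and epsilonTry (11345237 to 11346066), and gammaTry, CG30031 and CG30025 lie between betaTry and deltaTry. Next to deltaTry, iotaTry (11356720 to 11357537) had the only negative log2 fold change among the 9 tested members.

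Compared per kilobase of exon, the span from the highest to the lowest counted member was far wider than any member's change between mated and virgin midguts. On the scale of CPM per kb, alphaTry averaged 30277 ± 4017 in mated and 27545 ± 2257 in virgin libraries (SD, n = 3 each). betaTry followed with 18255 ± 3539 in mated and 15196 ± 2002 in virgin libraries. epsilonTry came next with 7141 ± 280 in mated and 4179 ± 628 in virgin libraries, and thetaTry had 1872 ± 115 in mated and 1238 ± 56.4 in virgin libraries. kappaTry came next at 468 ± 89.2 CPM per kb in mated and 407 ± 72.9 in virgin libraries. Below it lay zetaTry, iotaTry and etaTry, between 140 and 202 CPM per kb on average in either group, and then deltaTry at 59.0 ± 13.0 in mated and 7.11 ± 3.27 in virgin libraries. The order was the same in both groups apart from zetaTry and iotaTry, the only neighbours in the order whose library ranges overlapped. Among 16272 genes with an annotated length, alphaTry ranked 3 to 5 per kilobase in the mated libraries and 1 in each virgin library, while deltaTry ranked 901 to 1267 in mated and 3681 to 5609 in virgin libraries. The level and place of deltaTry are uncertain. Its counts are divided by all 810 bases, although reads that fit several gene copies are not counted.

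The abundant pair, alphaTry and betaTry, did not pass. alphaTry (11344260 to 11345119) had 29753, 22921 and 25441 CPM in mated libraries 1 to 3, against 24757, 24861 and 21448 CPM in virgin libraries 1 to 3. The groups overlapped, with mated 1 highest and mated 2 within the virgin range. Its log2 fold change was 0.14 ± 0.15 (SE; adjusted p = 0.688, edgeR), and the 95% interval of the fold ran from 0.880 to 1.37. betaTry (11346325 to 11347395) had 23868, 16768 and 18018 CPM in mated libraries and 18402, 16308 and 14115 CPM in virgin libraries. Mated 1 again stood highest, and virgin 1 lay above mated 2 and mated 3. The log2 fold change of betaTry was 0.26 ± 0.17 (SE; adjusted p = 0.477, edgeR), with a fold interval of 0.929 to 1.55. Neither interval shows that the levels were the same.

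epsilonTry, the third gene of the order, rose. It had 6188, 5742 and 5850 CPM in mated libraries and 3809, 3729 and 2869 CPM in virgin libraries. The 3 mated libraries lay close together, with a coefficient of variation of 3.93%, against 15.03% among the virgin libraries, where virgin 3 was lowest. The log2 fold change was 0.77 ± 0.15 (SE; adjusted p = 0.0135, edgeR), with a fold interval of 1.37 to 2.14. For the epsilonTry log2 fold change, the call was lost without mated 2 (adjusted p = 0.0501) and without mated 3 (adjusted p = 0.0639), while its value stayed between 0.68 and 0.88 whichever library was left out.

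thetaTry rose by less. It had 2100, 1891 and 1891 CPM in mated libraries, against 1332, 1228 and 1329 CPM in virgin libraries. The groups did not overlap, and the libraries of each lay close together, with a coefficient of variation of 6.16% in mated and 4.55% in virgin libraries. Its log2 fold change was 0.60 ± 0.13 (SE; adjusted p = 0.0242, edgeR), with a fold interval of 1.25 to 1.84. When 1 library was left out the call held only without virgin 1 (adjusted p = 0.0446) and was lost without any of the other 5 (adjusted p up to 0.0995), with log2 fold changes of 0.55 to 0.65. Scaled by library size alone, the thetaTry log2 fold change was 0.34 and did not pass (adjusted p = 0.0612, edgeR).

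The 4 members of lower level, kappaTry, zetaTry, etaTry and iotaTry, did not pass. kappaTry had 534, 402 and 379 CPM in mated libraries and 443, 308 and 392 CPM in virgin libraries (log2 fold change 0.20 ± 0.18, adjusted p = 0.612, edgeR). zetaTry (11339186 to 11340132) had 208, 179 and 182 CPM in mated libraries, against 220, 158 and 153 CPM in virgin libraries, and its highest library was virgin 1. For etaTry (11340513 to 11341423) the mated libraries held 153, 141 and 154 CPM and the virgin libraries 129, 107 and 146 CPM, so that virgin 3 lay above mated 2. iotaTry had 144, 142 and 166 CPM in mated and 145, 182 and 167 CPM in virgin libraries. The groups of all 4 genes overlapped. The fold intervals were 0.881 to 1.502 for kappaTry, 0.843 to 1.37 for zetaTry, 0.949 to 1.45 for etaTry and 0.746 to 1.124 for iotaTry, so a rise of 2-fold lay outside each of them.

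**Figure D3:**
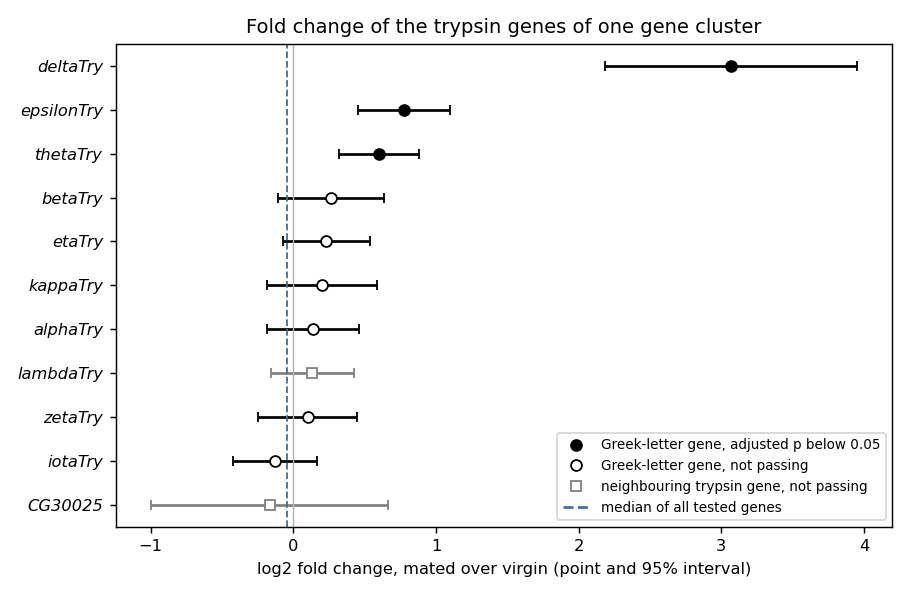
Log2 fold change (mated over virgin) with its 95% interval for the 9 counted Greek-letter genes (circles) and 2 neighbouring trypsin genes (squares); filled symbols passed an adjusted p of 0.05 and the dashed line is the median of all tested genes, -0.045. The intervals of deltaTry, epsilonTry and thetaTry lie above 0, and those of the other genes include 0.

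deltaTry had the largest fold change of the 9 tested members and the lowest counts. Its reverse-strand counts, which carry the strand of the gene in this library type, were 1267, 579 and 924 in mated libraries and 85, 207 and 143 in virgin libraries. These are 57.9, 36.8 and 48.7 CPM in mated midguts, against 2.82, 6.47 and 7.97 CPM in virgin midguts. Even the lowest mated library lay far above the highest virgin library. The log2 fold change was 3.07 ± 0.38 (SE; adjusted p = 0.00519, edgeR), with a fold interval of 4.55 to 15.5. Whichever single library was removed, deltaTry still passed (highest adjusted p 0.0446, without virgin 2), and the log2 fold change stayed between 2.77 and 3.39.

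Most reverse-strand counts of deltaTry were absent from the unstranded column. In the annotation, the last 15 bases of deltaTry overlap CG13202 (11356114 to 11356600), a gene on the opposite strand, and STAR's unstranded count leaves out a read that touches both genes. Whether the authors' annotation release holds the same overlap was not tested. The unstranded column of deltaTry held 431, 119 and 201 counts in mated libraries and 13, 50 and 14 in virgin libraries. Thus 74.6 ± 7.45% of its reverse-strand counts in mated and 83.6 ± 7.25% in virgin libraries were missing there (SD, n = 3 each; exact permutation p = 0.3, two-sided). The smaller set also differed between groups, at 12.6 ± 6.31 CPM in mated and 0.925 ± 0.579 CPM in virgin libraries, and in the unstranded fit the deltaTry log2 fold change was 3.75 (adjusted p = 0.00383, edgeR).

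The forward-strand column of CG13202, which holds reads on the strand of deltaTry, gave 934, 486 and 806 counts in mated and 73, 157 and 130 in virgin libraries. The counts missing from the unstranded column of deltaTry were 836, 460 and 723 in mated and 72, 157 and 129 in virgin libraries. The 2 sets of counts thus had the same order over all 6 libraries and are not taken here as 2 separate rises. They nearly matched in virgin libraries, while the CG13202 counts were the higher set in each mated library. The source of that surplus was not tested. Whether they hold the same reads was not tested. On its own strand CG13202 had 12 to 22 counts in mated and 8 to 36 in virgin libraries.

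**Figure D4:**
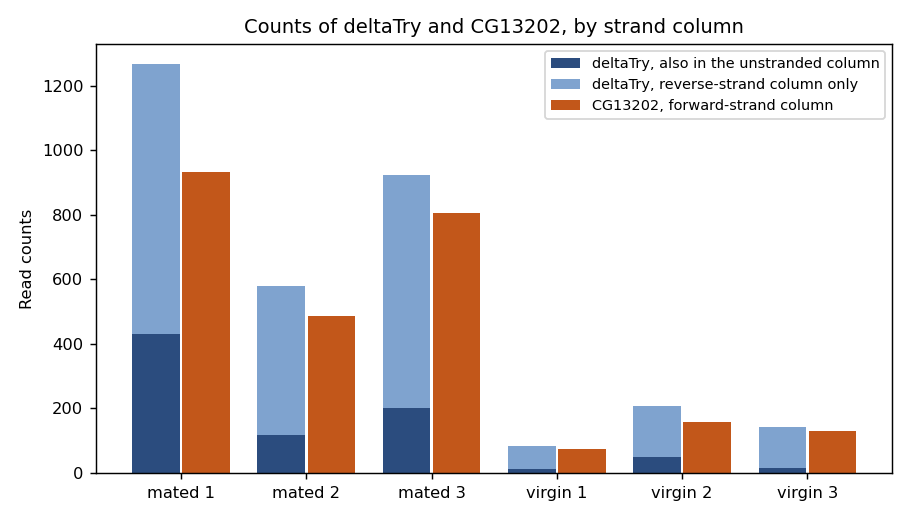
Read counts (vertical axis) in each library: left bars are the reverse-strand counts of deltaTry, split into those also in the unstranded column (dark blue) and those in the reverse-strand column only (light blue), and right bars are the forward-strand counts of CG13202, whose annotated end overlaps deltaTry by 15 bases. The light blue part and the orange bar have similar heights in the virgin libraries, and the orange bar is the taller in each mated library. Both are higher in the 3 mated libraries.

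gammaTry and its neighbour CG30031 had 0 counts in all 6 libraries. For gammaTry a count of 0 allows up to 0.137 to 0.191 CPM of counted reads in mated and 0.0938 to 0.167 CPM in virgin libraries (3 counts per library, counting error only). STAR's gene counts keep only reads placed at 1 position, so transcripts whose reads fit several copies are under-counted, and a count of 0 does not show that the gene is silent. Reads placed at several positions made up 7.67%, 5.67% and 6.91% of mated and 4.31%, 4.98% and 4.89% of virgin libraries, with no overlap between groups. The exact two-sided permutation p was 0.1, which is the lowest a comparison of 3 with 3 libraries reaches. Which genes they came from was not tested. CG30025, the remaining neighbour, had 4.61, 2.35 and 4.17 CPM in mated and 3.22, 4.75 and 4.57 CPM in virgin libraries. It did not pass (log2 fold change -0.17 ± 0.38, adjusted p = 0.869, edgeR), and its sign turned without mated 2 (0.075). The split of reads among gammaTry, deltaTry, CG30025 and CG30031 is therefore uncertain.

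Summed over the 10 genes, the level was 63005, 48223 and 52130 CPM in mated libraries and 49240, 46887 and 40627 CPM in virgin libraries. Mated 2 lay below virgin 1, so the groups overlapped. The ratio was 1.19 (exact permutation p = 0.2, two-sided, where 0.1 is the lowest possible), which does not show that the sums were the same. As a plain share of gene counts the sum was 4.96 ± 0.401% in mated and 4.97 ± 0.337% in virgin libraries (SD, n = 3 each; exact permutation p = 1). Scaling by library size alone thus gave a ratio of 0.999. With that scaling the median over all tested genes was -0.30 and over the 9 members -0.025 on the log2 scale, and 16.7% of all calls were higher, in place of 60.3% under TMM. The median of the 9 members thus lay above the median of all tested genes under both scalings. Among these members, iotaTry alone lay below the median of all tested genes, and did so under both scalings. Without alphaTry and betaTry the other 8 genes summed to 8863 ± 457 CPM in mated and 5621 ± 515 CPM in virgin libraries (SD, n = 3 each). These groups did not overlap (exact permutation p = 0.1), but this sum was not among the planned tests. Most of it came from epsilonTry (means of 5927 CPM in mated and 3469 CPM in virgin libraries) and thetaTry (1960 and 1296 CPM), which were called singly. It does not show a rise of kappaTry, zetaTry, etaTry or iotaTry, which did not pass.

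Shares within the family do not depend on library scaling. alphaTry made up 47.2%, 47.5% and 48.8% of the members' counts in mated libraries, against 50.3%, 53.0% and 52.8% in virgin libraries. epsilonTry made up 9.82%, 11.9% and 11.2% in mated and 7.74%, 7.95% and 7.06% in virgin libraries. The mated libraries thus held a lower share of alphaTry and a higher share of epsilonTry, with no overlap for either. thetaTry took 3.63 ± 0.294% in mated and 2.87 ± 0.355% in virgin libraries and deltaTry 0.0873 ± 0.00943% in mated and 0.0131 ± 0.00698% in virgin libraries (SD, n = 3 each), also with no overlap. betaTry kept close values, at 35.7 ± 1.86% in mated and 35.6 ± 1.51% in virgin libraries. Of 9 shares compared, those of alphaTry, epsilonTry, thetaTry and deltaTry reached an exact two-sided permutation p of 0.1, or 0.225 after Benjamini-Hochberg adjustment.

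**Figure D5:**
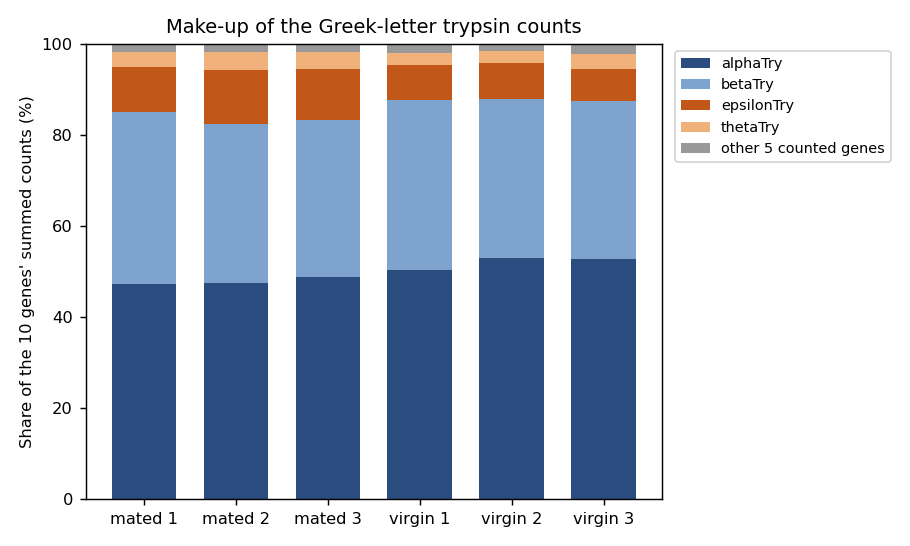
Share of the 10 genes' summed counts (vertical axis, %) taken by each gene in the 3 mated (left) and 3 virgin (right) libraries, as stacked bars. alphaTry is the lowest segment, below 49% in each mated library and above 50% in each virgin library, and epsilonTry is the third, at 9.82% to 11.9% in mated and 7.06% to 7.95% in virgin libraries.

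Ratios of single genes give the same counts pair by pair. They were not among the planned tests. Since epsilonTry and thetaTry had been called higher singly and alphaTry and zetaTry had not, these ratios are no further support. epsilonTry had 0.208, 0.2505 and 0.230 counts per count of alphaTry in mated libraries and 0.154, 0.150 and 0.134 in virgin libraries (exact permutation p = 0.1, two-sided). For betaTry over alphaTry the ratios were 0.802, 0.732 and 0.708 in mated and 0.743, 0.656 and 0.658 in virgin libraries, and these overlapped (exact permutation p = 0.3). thetaTry over zetaTry gave 10.1, 10.5 and 10.4 in mated and 6.06, 7.80 and 8.66 in virgin libraries, with no overlap (exact permutation p = 0.1).

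Among other trypsin-like proteases, 5 of 10 listed genes had enough counts to be tested; 2 rose and 3 did not pass, beside the 2.47% of all tested genes called higher. CG17571 had 3822, 3463 and 4039 CPM in mated libraries and 1995, 2545 and 2266 CPM in virgin libraries, and rose (log2 fold change 0.73 ± 0.14, adjusted p = 0.0149, edgeR), a call lost without mated 3 (adjusted p = 0.0861). CG8299 had a mean of 262 CPM in mated and 178 CPM in virgin libraries (log2 fold change 0.56 ± 0.13, adjusted p = 0.0408, edgeR), and the call held among fits with 1 library less only without mated 1 (adjusted p up to 0.185 without any other library). Try29F, named after its values were seen, had 7.08, 3.82 and 3.01 CPM in mated libraries and 9.33, 111 and 26.9 CPM in virgin libraries. All mated libraries lay below the virgin ones, among which virgin 2 stood highest. The Try29F log2 fold change was -3.40 ± 1.15 (SE) and did not pass in edgeR (adjusted p = 0.257), while DESeq2 called it lower (adjusted p = 0.0139). lambdaTry, at the edge of the cluster, had 812, 747 and 733 CPM in mated and 709, 623 and 760 CPM in virgin libraries and did not pass (log2 fold change 0.13 ± 0.13, adjusted p = 0.666, edgeR).

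Jonah genes, a second family of secreted gut serine proteases, had larger fold changes as a group than the Greek-letter trypsins. Of 16 tested, 12 rose and 4 did not pass, beside 2.47% of all tested genes called higher. Their median log2 fold change was 1.33. The members' counts per Jonah count were 0.328, 0.314 and 0.299 in mated libraries, against 0.559, 0.584 and 0.594 in virgin libraries. The ratio was lower in every mated library than in any virgin library (exact two-sided permutation p = 0.1). It was not among the planned tests, and it follows from the larger Jonah fold changes given above. Jon66Ci rose 5.47-fold, Jon44E 4.84-fold and Jon65Ai 4.49-fold, all with an adjusted p of 1.74e-05 (edgeR), and Jon99Fi rose 3.78-fold (adjusted p = 0.000283, edgeR).

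Of 12 serpins tested, a family of protease inhibitors that trap serine proteases, Spn42Da alone rose, and 11 did not pass, beside 2.47% of all tested genes called higher. It had 127, 140 and 141 CPM in mated and 75.2, 92.7 and 99.8 CPM in virgin libraries (log2 fold change 0.61 ± 0.14, adjusted p = 0.0317, edgeR). It passed only without mated 1 or without virgin 3 when 1 library was left out (adjusted p up to 0.125 otherwise). Among 8 genes of peptide and amino acid uptake, which takes over the products of protein digestion, slif, an amino acid transporter, rose and 7 did not pass. The same 2.47% of all tested genes called higher stands beside this. slif had 444 ± 47.3 CPM in mated midguts, against 225 ± 49.0 CPM in virgin midguts (SD, n = 3 each). Its log2 fold change was 0.99 ± 0.17 (adjusted p = 0.00886, edgeR).

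Among 11 tested genes tied to the control of midgut digestive enzymes, 0 passed in edgeR. At an unadjusted p below 0.05, 3 were higher and 2 lower, DESeq2 called 2 higher and 0 lower, and limma-voom called 0. Over all 8607 genes tested, DESeq2 called 387 higher and 242 lower, and limma-voom 220 higher and 120 lower. The share of all genes at an unadjusted p below 0.05 was not worked out, here or for the marker lists. sug, a sugar-responsive transcription factor, had 243, 203 and 239 CPM in mated and 201, 160 and 160 CPM in virgin libraries (log2 fold change 0.40 ± 0.14, adjusted p = 0.172, edgeR). GATAe, a GATA factor of the endoderm, had 167, 171 and 173 CPM in mated and 135, 132 and 183 CPM in virgin libraries, with virgin 3 the highest of the 6.

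Over the 6 libraries, the patterns most like those of the 3 genes that rose were found by Pearson's r of log2(CPM + 1), given as a description with no test since the libraries fall into 2 groups. For deltaTry these were CG6296 (r = 0.999), the lysozyme gene LysB (r = 0.993) and Arc1 (r = 0.992), all of which also rose. For epsilonTry the most alike was Jon99Cii (r = 0.989), a Jonah protease, which rose as well (log2 fold change 1.38, adjusted p = 0.00281, edgeR), followed by Rabex-5 (r = 0.989) and Ugt36E1 (r = 0.985), which did not pass. For thetaTry they were SCaMC (r = 0.999), which rose, and Sply (r = 0.997) and CG2076 (r = 0.997), which did not pass. SCaMC (adjusted p = 0.0232, edgeR) was lost with library size alone, with the replicate block and without any 1 library other than virgin 1 (adjusted p up to 0.0799 with 1 library left out). The summed level of the 10 genes was most like snu, mfas, COX5A, mRpL2 and Pax (r of 0.973 to 0.981), none of which passed in edgeR.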

How the data were processed

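RNA was measured in 3 mated and 3 virgin midgut pools. Libraries were made with a stranded TruSeq mRNA kit, per the labels' protocols. The submitters' processing notes name CASAVA 1.8.4, STAR, DESeq2 1.42.0 and build dm6, with no role or order, and they name no annotation release. The authors deposited counts of reads per gene in 3 columns (unstranded, forward strand, reverse strand), laid out as STAR writes them, and the reverse-strand column was used. The 4 summary rows (20.9% to 27.0% of reads) stayed out of library sizes and tests.

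Counts were analysed in R 4.3.3 with edgeR 4.0.16: filterByExpr left 8607 genes, followed by TMM scaling (factors 0.860 to 0.965 in mated, 1.04 to 1.13 in virgin libraries), estimateDisp and glmQLFit with robust settings, and glmQLFTest with mating status as its single term. Standard errors were derived from the F statistic. Sums, shares and ratios were compared by exact permutation tests. Of these, only the sum of the 10 genes and the members' shares of that sum were planned. Positions and exonic lengths come from Ensembl's annotation in dm6 coordinates, where all 10 symbols matched. On simulated counts for this comparison over 8607 genes, each true fold had 50 genes. At 1.5-fold 8% were called, at 2-fold 60%, and at 4-fold and at 8-fold 80%, and 15 unchanged genes were called. These were 11.6% of the calls, above the nominal 5%, so adjusted p-values just under 0.05 are less firm than they read.

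The members and lists were chosen with earlier results of these data known. All members are named, with up to 4 called members of each list, or the 2 highest by CPM where none was called, and the genes most alike in pattern. lambdaTry, CG30025, CG30031 and CG13202 are named for their place in the cluster, the last after its counts were seen. Nothing in the labels states that the pools are independent cultures; the p-values then reflect only how these samples vary, which may be technical. Alternatives were other scalings, filters, limma-voom (limma 3.58.1), DESeq2 1.42.0, a replicate block, the unstranded column, a threshold of 0.01 and each library left out.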

Additional observations from a re-analysis of the deposited data

Results flagged for a closer look

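The forward-strand column, which the comparisons of levels did not use, held counts under CG13202 that were higher in mated than in virgin libraries. They averaged 38.7 CPM in mated libraries (30.9 to 42.7) and 4.86 CPM in virgin libraries (2.42 to 7.25), and the groups did not overlap. In virgin libraries they were close to the deltaTry counts missing from the unstranded column (73, 157 and 130 against 72, 157 and 129). In mated libraries they were higher than those (934, 486 and 806 against 836, 460 and 723). The forward-strand counts are not taken here as a separate observation from deltaTry, and whether they hold the same reads was not tested. They say nothing of CG13202 on its own strand. The column covers reads on the strand of deltaTry, whose last 15 bases the annotation of CG13202 overlaps, and of the 10 Greek-letter genes, lambdaTry, CG30025 and CG30031, none with at least 30 forward-strand counts over the mated libraries had all of them above the virgin libraries. With 3 libraries a group, single libraries were not tested for standing apart.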

How the results depend on the processing

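Under the settings that kept all 6 libraries, 85 of 90 member results kept their direction and side of the threshold. Scaled by library size alone, thetaTry was lost, the sign turned for alphaTry (-0.12), zetaTry (-0.15), etaTry (-0.025), kappaTry (-0.055), lambdaTry (-0.12), COX5A (-0.023) and Pax (-0.13) and for the GATAe log2 fold change (-0.073), and the ratio of the members' sums was 0.999; these genes passed in neither fit. CG30025 ranged from -0.35 to 0.075 with 1 library left out, positive only without mated 2. At a threshold of 0.01, 1 member, 0 other trypsin-like genes and 0 serpins were higher. Library size alone gave 1 higher other trypsin-like gene, 0 higher serpins and 2 lower regulators. Over all 8607 genes tested it called 146 higher and 726 lower. DESeq2 gave 1 lower other trypsin-like gene (Try29F), 2 higher serpins, 2 higher regulators and 3 higher uptake genes, and no low-count filter gave 2 higher uptake genes. In the unstranded column the share of deltaTry in the summed member counts, mated minus virgin, was 0.0204 percentage points, in place of 0.0742, since fewer of its reads are counted there. With 1 library left out, the number higher ranged from 1 to 3 for the members, 0 to 2 for other trypsin-like genes, 0 to 1 for serpins, 0 to 2 for regulators and 10 to 12 for Jonah genes, and the ratio of the members' sums from 1.10 to 1.27. Without mated 2 or mated 3 the 1 member called was deltaTry. Other causes were not tested.

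Deviations from the group means had r of -0.146, -0.0791 and -0.0339 between same-numbered mated and virgin libraries. With 3 libraries a group this cannot decide whether the numbers mark a shared batch, and no label says so. With the replicate block 3 members were still higher, with deltaTry at an adjusted p of 0.0317, 1 other trypsin-like gene was higher and 1 regulator was higher. The planned shares of unique sequence, protein likeness and promoter motifs were not run. The low counts of deltaTry in virgin libraries, 85 to 207, limit how well its fold change is known.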
